A study of Mus musculus with 6 samples.

Results

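The complement genes of brown adipose tissue (BAT) were described in Letmd1 KO and wild-type mice. The group is defined by gene symbol and was chosen with earlier results of these data known, and it holds 9 of the 23282 gene rows of the count files: C1qa, C1qb, C1qc, C1ra, C2 and C4b of the classical pathway, Cfb and Cfd of the alternative pathway, and C3, on which all pathways meet. RNA of BAT was taken from 3 wild-type and 3 Letmd1 KO male mice of the C57BL/6N strain at 5 weeks of age, and no treatment is named in the labels. The Letmd1 KO mice were homozygous for a knockout-first allele, which came from 1 embryonic stem cell clone and carries a lacZ and neomycin cassette in an intron of Letmd1. This allele is not restricted to brown adipocytes, so macrophages, fibroblasts and all other cells of the tissue carried it as well.

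Complement is a set of plasma and cell surface proteins that mark particles, dying cells and microbes for removal. In the classical pathway, C1q binds its target and activates the proteases C1r and C1s, which cut C4 and C2 to form a convertase that cuts C3. In the alternative pathway, a cut or hydrolysed form of C3 binds factor B (Cfb), which factor D (Cfd) then cuts. The convertase so formed cuts more C3 and amplifies the reaction. Most plasma complement comes from the liver, but C1q is made mainly by macrophages, and factor D is the adipokine adipsin, one of the most abundant secreted products of fat cells.

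The libraries held between 6669577 and 14574273 counts, and all values below are CPM, that is counts scaled to a common library size with TMM factors. The libraries read the 3′ ends of mRNAs, so levels of different genes are compared on this scale without correction for length. Letmd1 was counted 5658, 6490 and 5266 times in wild-type replicates 1, 2 and 3, against 0, 0 and 1 time in the Letmd1 KO replicates. Ucp1, the defining gene of brown fat, was present at 5841 to 6874 CPM in wild-type BAT and at 255 to 476 CPM in Letmd1 KO BAT. Of all 12995 genes tested with edgeR's quasi-likelihood test, 23.7% had higher and 22.3% had lower levels in Letmd1 KO BAT (threshold, an adjusted p of 0.05), and the median log2 fold change was 0.033. The values of the genotypes did not overlap, with the Letmd1 KO mice higher, for 30.1% of these genes, and with the Letmd1 KO mice lower for 27.2%.

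All 9 complement genes passed the filter on low counts. Of these, 7 were higher in Letmd1 KO BAT (C1qa, C1qb, C1qc, C1ra, C2, C4b and Cfb), C3 was lower, and Cfd did not pass the threshold. These 7 of 9 genes stand beside the 23.7% of all genes that were higher, as a description only, since the 9 genes are not independent and were not tested as a list. Their median log2 fold change was 2.33, and it was 1.53 without Letmd1 KO replicate 2. The genotypes did not overlap for 6 of the higher genes and for C3. With RNA of the whole tissue, more cells of a type cannot be told apart from more RNA per cell, and fewer cells of a type cannot be told apart from less RNA per cell.

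**Figure D1:**
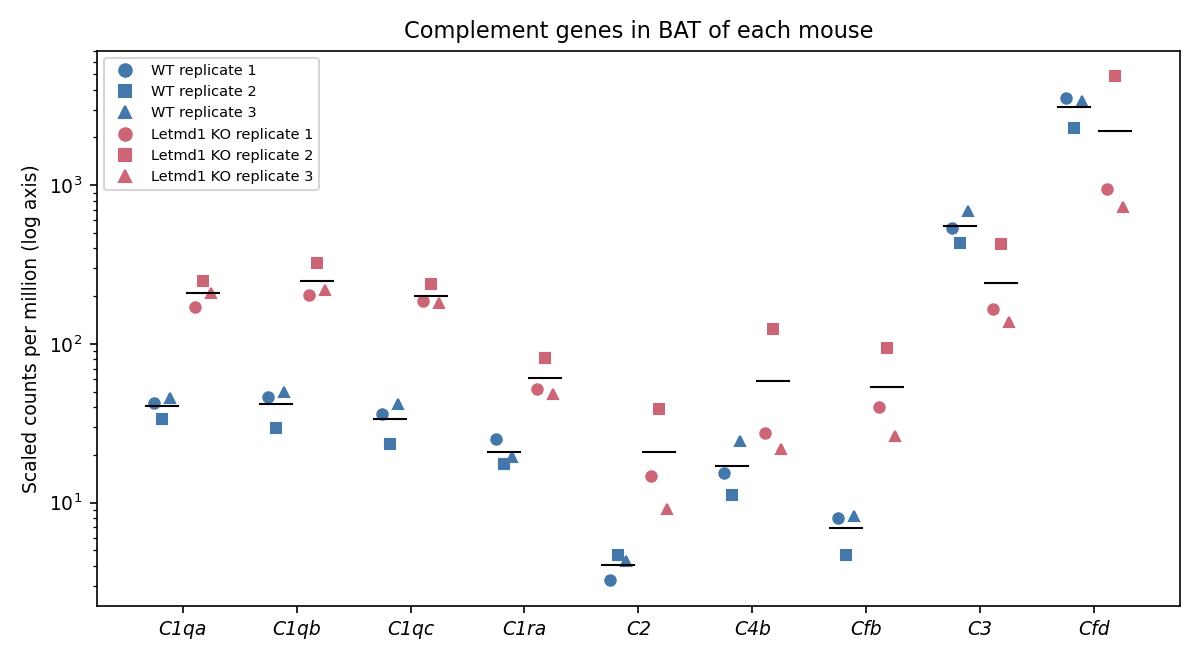
TMM-scaled CPM (log axis) of the 9 complement genes in each mouse, with wild-type mice in blue and Letmd1 KO mice in red, replicates 1, 2 and 3 as circles, squares and triangles, and black lines at the mean of 3 mice. The C1q chains lie apart in the genotypes, whereas Letmd1 KO replicate 2 (red square) lies above both other Letmd1 KO mice for every gene and above all wild-type mice for Cfd, at 4882 CPM.

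In wild-type BAT, Cfd was by far the most abundant of the genes, at 3092 ± 693 CPM (SD, n = 3), which placed it at rank 33 of the genes tested. C3 followed at 553 ± 127 CPM (SD, n = 3). The C1q chains came next, with C1qb at 41.8 ± 10.8, C1qa at 40.7 ± 6.15 and C1qc at 33.7 ± 9.42 CPM (SD, n = 3 each), which did not differ beyond their spread. C1ra at 20.7 ± 4.02 and C4b at 17.0 ± 6.73 CPM (SD, n = 3 each) were also within their spread of each other. Cfb at 6.95 ± 1.98 and C2 at 4.07 ± 0.74 CPM (SD, n = 3 each) were the least abundant. In Letmd1 KO BAT the order below Cfd changed, since C1qb (248 ± 65.9 CPM), C3 (244 ± 160), C1qa (209 ± 39.0) and C1qc (201 ± 32.5) lay within their spread of one another (SD, n = 3 each). The neighbours C1ra (60.8 ± 18.5 CPM), C4b (58.0 ± 57.9) and Cfb (53.6 ± 35.9) also lay within theirs, above C2 at 20.8 ± 15.7 CPM (SD, n = 3 each). Of the summed counts of the 9 genes, Cfd made up 81.1% ± 1.99 (SD, n = 3) in wild-type BAT and 58.1% ± 15.4 (SD, n = 3) in Letmd1 KO BAT.

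C1q is assembled from A, B and C chains, the products of 3 neighbouring genes. On GRCm38 (the build of the annotation used here, and that of mm10 in the submitters' processing notes) they lie on the minus strand of chromosome 4, with C1qb at chr4:136880129-136886187, C1qc at chr4:136889804-136893065 and C1qa at chr4:136895917-136898803, and no other protein-coding gene between them. The RefSeq promoter windows, from 250 bases before to 50 bases after the annotated start, are shown for C1qb and C1qc because these genes had the closest profiles over the mice, and for C3 and Cfd because these were the only genes of the group with log2 fold changes below 0. Windows for 5 of the 9 genes were found in the RefSeq table (GRCm38.p6). Those of C1qb (chr4:136886151-136886450, minus strand), C1qc (chr4:136892865-136893164, minus strand), C3 (chr17:57228087-57228386, minus strand) and Cfd (chr10:79890603-79890902, plus strand) are written 5′ to 3′, with matches on either strand to GAGGAA or TTNNGCAA in capitals, of which Cfd has none.
C1qb: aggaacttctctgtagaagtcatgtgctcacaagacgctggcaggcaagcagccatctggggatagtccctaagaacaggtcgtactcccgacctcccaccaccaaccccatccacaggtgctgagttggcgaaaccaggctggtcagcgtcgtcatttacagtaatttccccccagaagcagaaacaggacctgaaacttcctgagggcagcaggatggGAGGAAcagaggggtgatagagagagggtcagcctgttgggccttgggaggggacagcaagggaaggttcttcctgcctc
C1qc: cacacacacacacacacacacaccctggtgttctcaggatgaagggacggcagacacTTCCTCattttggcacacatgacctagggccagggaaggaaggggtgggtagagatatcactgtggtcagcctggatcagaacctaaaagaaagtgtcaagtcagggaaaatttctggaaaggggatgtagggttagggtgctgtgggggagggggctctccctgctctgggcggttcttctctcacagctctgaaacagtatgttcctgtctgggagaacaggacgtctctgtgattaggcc
C3: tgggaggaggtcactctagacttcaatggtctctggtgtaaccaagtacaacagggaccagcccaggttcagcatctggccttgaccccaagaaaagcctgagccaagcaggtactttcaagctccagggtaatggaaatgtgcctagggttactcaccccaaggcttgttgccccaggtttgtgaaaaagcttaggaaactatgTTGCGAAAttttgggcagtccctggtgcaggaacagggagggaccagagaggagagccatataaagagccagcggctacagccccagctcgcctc
Cfd: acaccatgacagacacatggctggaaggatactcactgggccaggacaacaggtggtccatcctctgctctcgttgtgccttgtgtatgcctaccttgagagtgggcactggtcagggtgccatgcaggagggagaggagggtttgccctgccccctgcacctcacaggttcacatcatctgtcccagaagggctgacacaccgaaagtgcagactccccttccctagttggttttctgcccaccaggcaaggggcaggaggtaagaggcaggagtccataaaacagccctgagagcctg

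GAGGAA, the core of sites for the myeloid factor PU.1, was in the windows of C1qb (30 bases before the start on the forward strand), C1qc (193 bases before it on the reverse strand) and C1ra, and in 28.1% of all 32544 windows. TTNNGCAA, a form of the site for C/EBP factors, was in those of C3 (45 bases before the start on the reverse strand) and C1ra, and in 10.8% of all windows. GAAANNGAA, a spaced pair bound by interferon regulatory factors, was in none of the 5 windows and in 8.53% of all windows. The E-box CACGTG was also in none (7.17% of all windows), and TATAAA was in that of C3 only (13.6%). Distances are to the RefSeq start. For C1qc and C1ra the GENCODE start lies earlier within the window, so what counts as before the start depends on the annotation. These matches describe letters in a window and are no evidence of binding. None of the matches printed here overlapped another.

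The C1q chains rose together in Letmd1 KO BAT, each by more than 5-fold. C1qa was at 42.4, 33.8 and 45.8 CPM in the wild-type mice and at 170, 248 and 210 CPM in the Letmd1 KO mice. C1qb was at 46.1, 29.5 and 49.8 CPM in the wild-type mice and at 202, 324 and 219 CPM in the Letmd1 KO mice. C1qc was at 36.0, 23.3 and 41.7 CPM in the wild-type mice and at 185, 239 and 180 CPM in the Letmd1 KO mice. Every Letmd1 KO mouse was above every wild-type mouse for each chain, wild-type replicate 2 was the lowest mouse throughout, and Letmd1 KO replicate 2 was the highest. The log2 fold change was 2.36 for C1qa (standard error 0.17, edgeR adjusted p = 1.28e-05), 2.57 for C1qb (standard error 0.24, edgeR adjusted p = 3.96e-05) and 2.58 for C1qc (standard error 0.21, edgeR adjusted p = 2.27e-05). These calls held under all alternatives in scaling, tool and filter and with each mouse left out, with log2 fold changes between 2.22 and 3.17 over the 3 chains.

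The share of each chain in the summed level of all chains was 30.5% to 39.1% for C1qa, 34.0% to 39.9% for C1qb and 26.9% to 33.2% for C1qc over the 6 mice. The log2 ratio of C1qa to C1qc was 0.23, 0.53 and 0.13 in the wild-type mice, against -0.13, 0.053 and 0.22 in the Letmd1 KO mice. The mean difference of -0.25 did not pass a two-sided exact permutation test (p = 0.2, adjusted p = 0.4 over the 4 ratios tested). With 3 mice in each genotype this test cannot give a p below 0.1, so it does not show that the proportion was unchanged. C1qb was also set against Adgre1, which encodes the macrophage surface protein F4/80. The log2 ratio of C1qb to Adgre1 was 3.29, 1.94 and 2.92 in the wild-type mice, against 2.41, 2.38 and 2.66 in the Letmd1 KO mice, so that the groups overlapped (difference -0.24, exact permutation p = 0.6, adjusted p = 0.6). The sign of this difference turned under quantile normalization (0.10) and without wild-type replicate 1 (0.050).

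Macrophage markers moved with the C1q chains. Of 8 markers, 7 passed the filter and all 7 were higher in Letmd1 KO BAT, beside 23.7% of all genes. Their log2 fold changes lay between 1.10 and 3.96. Mertk, the eighth, had too few counts to be tested. Its mean was lower in Letmd1 KO BAT, at 0.39 ± 0.24 against 0.87 ± 0.39 CPM (SD, n = 3 each), and the mice overlapped. Their summed level was 86.6 to 113 CPM in wild-type BAT and 527 to 1011 CPM in Letmd1 KO BAT, beside a summed level of the C1q chains of 86.6 to 137 CPM and 557 to 810.1 CPM. The part of macrophages in the rise of C1q was not tested. The defining hepatocyte markers were near 0 in both genotypes, with Alb at most at 1.30 CPM and 6 markers together at most at 4.64 CPM. Of the 2 that were tested, Apoa2 was lower in Letmd1 KO BAT (log2 fold change -2.72, edgeR adjusted p = 0.00443).

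**Figure D2:**
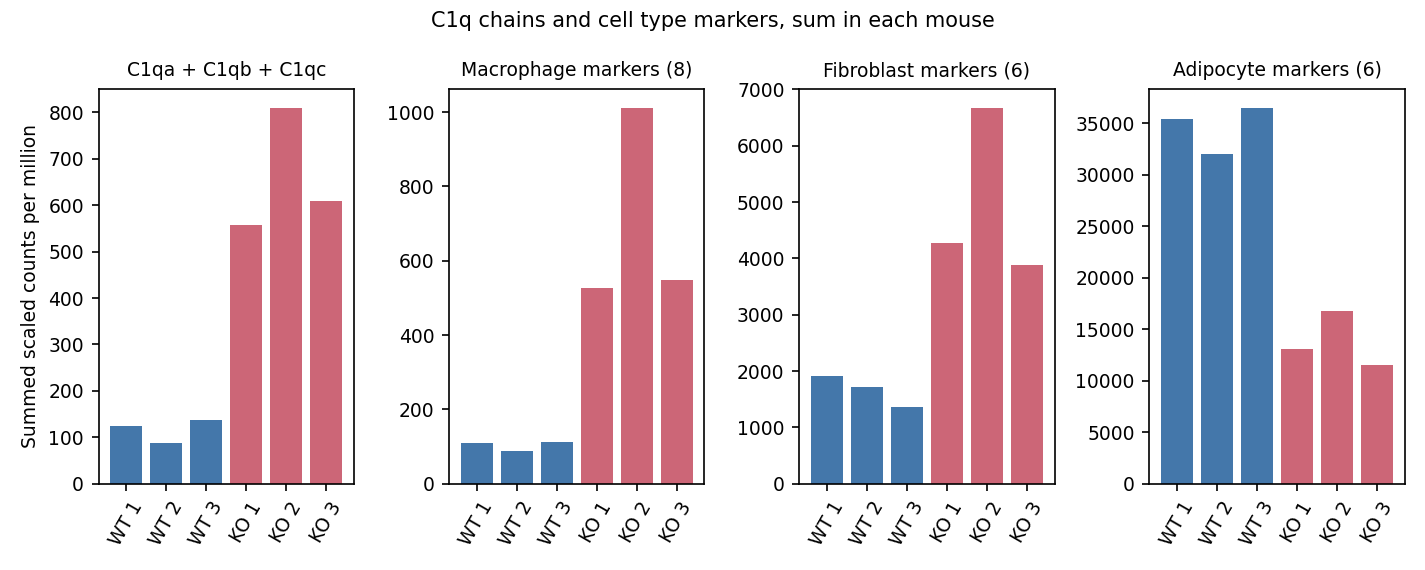
Summed TMM-scaled CPM of the C1q chains and of markers of macrophages, fibroblasts and adipocytes, 1 bar per mouse on linear axes that start at 0, with wild-type mice in blue and Letmd1 KO mice in red. C1q and macrophage markers are highest in Letmd1 KO replicate 2 (810.1 and 1011 CPM), and the sum of adipocyte markers lies between 11514 and 16794 CPM in the Letmd1 KO mice, below all wild-type mice.

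The proteases that C1q activates also rose, with smaller fold changes than the C1q chains, a difference that was not tested. C1ra, which encodes a C1r protease (chr6:124512405-124523443, plus strand), was at 25.2, 17.5 and 19.4 CPM in the wild-type mice and at 52.2, 82.1 and 48.0 CPM in the Letmd1 KO mice, without overlap. Its log2 fold change was 1.55 (standard error 0.23, edgeR adjusted p = 0.000565), and it was between 1.27 and 1.71 with each mouse left out. The copy C1rb had a log2 fold change of 1.35 (edgeR adjusted p = 0.00112), and the partner proteases C1s1 and C1s2 had 1.28 and 1.35 (edgeR adjusted p = 0.00106 and 0.00351). C1ra took between 65.0% and 69.5% of the counts of C1ra and C1rb in every mouse, and the sum of both copies rose by 1.48 on the log2 scale (edgeR adjusted p = 0.000525). Fibroblasts also make these proteases. All 6 fibroblast markers were higher in Letmd1 KO BAT, beside 23.7% of all genes. They summed to 1369 to 1906 CPM in wild-type and 3876 to 6674 CPM in Letmd1 KO BAT. Their part in the rise of C1ra was not tested.

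C2 and C4b, whose products form the classical convertase, were both higher in Letmd1 KO BAT but unevenly among the mice. C2 (chr17:34862604-34898265, minus strand) was at 3.23, 4.66 and 4.30 CPM in the wild-type mice and at 14.6, 38.6 and 9.06 CPM in the Letmd1 KO mice. All Letmd1 KO mice were above the wild-type mice, and replicate 2 was far above both others. The log2 fold change of C2 was 2.33 (standard error 0.50, edgeR adjusted p = 0.00471), and without Letmd1 KO replicate 2 it was 1.53 (edgeR adjusted p = 0.00399). C2 shares a stretch of 17385 bases with Zbtb12 on the opposite strand, and whether reads were counted by strand is not given in the sources used here. On the same strand, Gm20547 overlaps 19439 bases of C2 and 6107 bases of Cfb and has no row in the counts. Reads from it could not be told apart from those of C2 and Cfb by strand.

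C4b (chr17:34728380-34743882, minus strand) was at 15.3, 11.2 and 24.4 CPM in the wild-type mice and at 27.6, 125 and 21.8 CPM in the Letmd1 KO mice. The genotypes overlapped, as Letmd1 KO replicate 3 lay below wild-type replicate 3. The log2 fold change was 1.77 (standard error 0.62, edgeR adjusted p = 0.0415). It was 0.54 without Letmd1 KO replicate 2 (edgeR adjusted p = 0.166), and the call was also lost without wild-type replicate 1 (1.69) or 2 (1.52), under quantile normalization (1.32) and with DESeq2 (1.76). C4b has a close copy, C4a, in which 294 of the last 300 bases of the C4b transcript were matched, so the division of reads between them is uncertain. C4a was counted 22, 25 and 14 times in wild-type BAT against 59, 179 and 74 times in Letmd1 KO BAT. Its log2 fold change was 2.28, and 1.22 without Letmd1 KO replicate 2. C4a and C4b summed rose by 1.84 on the log2 scale (edgeR adjusted p = 0.0309).

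Cfb and C3, whose products together make the alternative convertase, changed in opposite directions. Cfb (chr17:34856374-34862518, minus strand) lies 85 bases from C2. It was at 7.98, 4.66 and 8.21 CPM in the wild-type mice and at 40.0, 94.2 and 26.5 CPM in the Letmd1 KO mice. The groups were well apart, and Cfb had the largest log2 fold change of the 9 genes, 2.94 (standard error 0.46, edgeR adjusted p = 0.000803). The call held with each mouse left out, and the log2 fold change was 2.25 without Letmd1 KO replicate 2 (edgeR adjusted p = 0.000261), which then was below that of C1qb and C1qc.

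C3 (chr17:57203970-57228136, minus strand) was at 537, 434 and 687 CPM in the wild-type mice and at 167, 428 and 137 CPM in the Letmd1 KO mice. The highest Letmd1 KO mouse, replicate 2, lay just below the lowest wild-type mouse. The log2 fold change was -1.18 (standard error 0.38, edgeR adjusted p = 0.0305). The direction was the same in all alternatives, but the call was lost with scaling by library size alone (-0.77, edgeR adjusted p = 0.0985), under quantile normalization with limma (-0.995, adjusted p = 0.0545), with DESeq2 (-1.20, adjusted p = 0.0791), with the muscle level as a covariate (-0.65, edgeR adjusted p = 0.333) and when any of wild-type replicates 1 (-1.22) and 3 (-1.01) and Letmd1 KO replicates 1 (-0.97) and 3 (-0.90) was left out. Without Letmd1 KO replicate 2 the log2 fold change was -1.87 (edgeR adjusted p = 0.000137). The muscle level is the mean log2 CPM of 6 muscle markers in each mouse. It was -1.12 and -1.23 in wild-type replicates 1 and 3, 5.41 in wild-type replicate 2 and 4.98 to 6.94 in the Letmd1 KO mice. This level largely followed genotype, so fits with it cannot tell the muscle level apart from genotype.

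Within each mouse, the balance of C3 and Cfb lay apart in the genotypes with little spread among the mice of each. The log2 ratio of C3 to Cfb was 6.04, 6.48 and 6.35 in the wild-type mice, against 2.05, 2.18 and 2.36 in the Letmd1 KO mice. It fell by 4.09 on the log2 scale, from 6.29 ± 0.23 to 2.20 ± 0.15 (SD, n = 3 each), and Letmd1 KO replicate 2 did not stand apart in this ratio. The exact permutation p was 0.1, the smallest that this design allows, and 0.4 after adjustment over the 4 ratios. The difference was between -4.22 and -3.60 in all alternatives run on it.

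**Figure D3:**
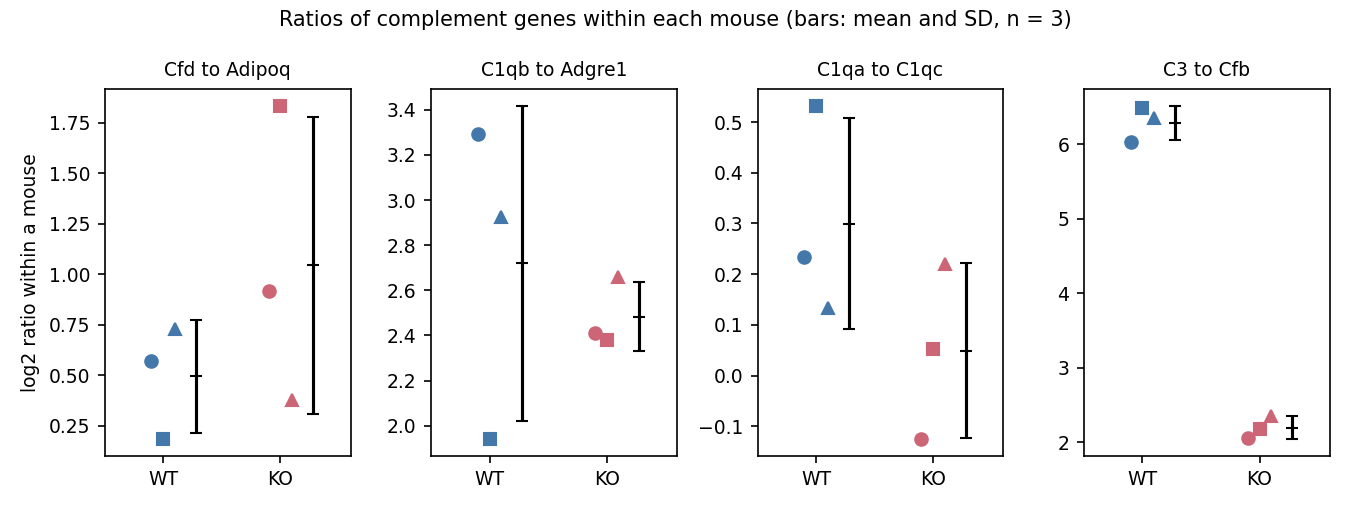
Log2 ratios of gene pairs within each mouse (1 panel per pair, each with its own vertical axis, which does not start at 0), with wild-type mice in blue, Letmd1 KO mice in red, replicates 1, 2 and 3 as circles, squares and triangles, and bars for mean and SD of 3 mice. The ratio of C3 to Cfb lies at 6.04 to 6.48 in wild-type and at 2.05 to 2.36 in Letmd1 KO mice, while the values of the other pairs overlap between the genotypes.

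Cfd (chr10:79890853-79892655, plus strand), which encodes adipsin, did not separate the genotypes. It was at 3561, 2296 and 3418 CPM in the wild-type mice and at 951, 4882 and 732 CPM in the Letmd1 KO mice. Letmd1 KO replicates 1 and 3 were below every wild-type mouse and replicate 2 was above every one. The log2 fold change was -0.50 (95% confidence interval -1.87 to 0.87, edgeR adjusted p = 0.535). Without Letmd1 KO replicate 2 it was -1.88 (edgeR adjusted p = 0.000212), so 1 mouse decided whether Cfd was called. With the muscle level as a covariate the sign turned (0.19, edgeR adjusted p = 0.877).

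Cfd was compared with Adipoq, which encodes the adipokine adiponectin. The log2 ratio of Cfd to Adipoq was 0.57, 0.19 and 0.73 in the wild-type mice, against 0.92, 1.84 and 0.38 in the Letmd1 KO mice. These ranges overlapped, and the difference of 0.55 did not pass the exact permutation test (p = 0.4, adjusted p = 0.53). Adipoq itself was lower in Letmd1 KO BAT, with a log2 fold change of -1.41 (edgeR adjusted p = 0.00801). Of 6 adipocyte markers, 5 were lower, beside 22.3% of all genes. The sum of the 6 was 32020 to 36491 CPM in wild-type and 11514 to 16794 CPM in Letmd1 KO BAT. The part of this shift in the values of Cfd and C3 was not tested.

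Letmd1 KO replicate 2 stood apart from both other Letmd1 KO mice in complement genes, as a comparison chosen after the values were seen. Its level divided by the mean of Letmd1 KO replicates 1 and 3 was 5.80 for Cfd, 5.06 for C4b, 3.27 for C2, 2.84 for Cfb and 2.82 for C3. For C1qa, C1qb, C1qc and C1ra it was between 1.31 and 1.64. The median of all genes with a mean of at least 20 counts was 1.001, and 0.185% of them had a larger ratio than Cfd. The same ratio was 2.57 for Adipoq, 2.65 for Cidec and 1.35 for Fabp4. Fabp4 gave 12641 of the 16794 CPM of the adipocyte marker sum in this mouse. For that sum the ratio was 1.36. It was 1.88 for the macrophage marker sum, 1.64 for the fibroblast marker sum and 0.60 for the brown adipocyte marker sum. Muscle markers, a sign of other tissue in the dissected pad, summed to 2.48 and 2.91 CPM in wild-type replicates 3 and 1 and to between 211 and 837 CPM in the other 4 mice. Their level was lowest among the Letmd1 KO mice in replicate 2, and its part in these values was not tested. Neutrophil markers, which summed to 0.9998 to 46.5 CPM over all mice without separating the genotypes, also stood at a ratio of 5.80 in this mouse, and their part was not tested either.

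Over the wider pathway, all genes of the classical start and most receptors were higher in Letmd1 KO BAT. The few regulators tested went both ways or did not pass the threshold. The classical start holds C1qa, C1qb, C1qc, C1ra, C2 and C4b, already described, with C1rb, C1s1, C1s2 and C4a, so its count repeats them. GENCODE annotates C4a as a processed transcript, and its reads may be shared with C4b, so the calls of C4a and C4b are not independent. Of the 10 genes of the classical start, 10 were higher in Letmd1 KO BAT, beside 23.7% of all genes. Their median log2 fold change was 2.02 against 0.033 for all genes tested. Under quantile normalization 8 of them were higher, and C4a was at an adjusted p of 0.0584 there, and at 0.0731 with the muscle covariate. Of 9 genes of the lectin pathway, 3 passed the filter and 2 were higher. These are too few to read against the 23.7% of all genes. The ficolin gene Fcna and the scavenger receptor gene Colec12 were higher, with log2 fold changes of 1.97 and 1.84 (edgeR adjusted p = 0.000186 and 0.00966, the latter 0.136 with the muscle covariate). The mannose-binding lectin gene Mbl2 and the protease gene Masp1 had no count in any mouse, which allows a level of up to 0.176 to 0.397 CPM.

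In the alternative pathway, Cfp, which encodes properdin, the stabiliser of the convertase, rose as Cfb did. Its level was 8.41 ± 1.65 CPM in wild-type and 45.3 ± 11.3 CPM in Letmd1 KO BAT (SD, n = 3 each), and the log2 fold change was 2.43 (edgeR adjusted p = 3.67e-05). Of 7 terminal genes, whose products form the membrane attack complex, 4 had no count in any mouse and only C8g passed the filter. C8g, the gamma chain of C8, fell from 7.24 ± 1.72 to 1.78 ± 0.76 CPM (SD, n = 3 each), a log2 fold change of -2.03 (edgeR adjusted p = 0.00189). The genes of the alpha and beta chains, C8a and C8b, were among those without a count.

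Of 4 soluble regulators tested, 1 was higher, 1 was lower and 2 did not pass the threshold. Of all genes, 23.7% were higher and 22.3% lower, and 4 genes are too few to read against these shares. Serping1, the inhibitor of C1r and C1s, rose from 97.5 ± 9.28 to 243 ± 69.6 CPM (SD, n = 3 each), with a log2 fold change of 1.32 (edgeR adjusted p = 0.000475), close to those of the proteases it inhibits. Cpn2, the carrier subunit of carboxypeptidase N, which inactivates C3a and C5a, fell from 36.8 ± 3.45 to 6.25 ± 1.05 CPM (SD, n = 3 each), a log2 fold change of -2.53 (edgeR adjusted p = 9.94e-06). Cpn1, the catalytic subunit, was named after its values were seen. It did not pass the filter on low counts, with no count in the wild-type mice, against 13, 5 and 22 counts in the Letmd1 KO mice, at least 3.28-fold higher against a floor of 3 counts per library. Without the filter it was called higher (edgeR adjusted p = 0.00293).

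On the cell surface, Cd59a and Cd59b, which block the membrane attack complex, both fell. Cd59a went from 379 ± 20.4 to 218 ± 9.07 CPM (SD, n = 3 each), with a log2 fold change of -0.80 (edgeR adjusted p = 0.000248), and Cd59b had -1.81 (edgeR adjusted p = 0.00261). Both were lower under library size scaling (-0.37 and -1.40) and under quantile normalization (-0.46 and -2.32). Cr1l, which encodes Crry, a mouse inhibitor of the C3 convertases, was at 43.1 ± 2.98 CPM in wild-type and 46.9 ± 3.81 CPM in Letmd1 KO BAT (SD, n = 3 each) and did not pass the threshold (log2 fold change 0.12, edgeR adjusted p = 0.447), except with scaling by library size alone (0.54, edgeR adjusted p = 0.00595). Of 7 membrane regulators, 4 were tested, 2 were lower and none was higher with TMM scaling, beside 22.3% and 23.7% of all genes, and 4 genes are too few to read against these shares.

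Of 9 receptors, 8 were tested and 7 were higher in Letmd1 KO BAT (23.7% of all genes), with a median log2 fold change of 2.73. Several of them mark leukocytes, and the macrophage markers, 7 of 7 tested higher, had a median of 2.86. Their part in these values was not tested. C3ar1, the receptor of C3a, rose from 5.28 ± 1.27 to 46.2 ± 27.3 CPM (SD, n = 3 each), with a log2 fold change of 3.12 (edgeR adjusted p = 0.000264), and 2.53 without Letmd1 KO replicate 2. C5ar1 and C5ar2, the receptors of C5a, had 2.68 and 2.77 (edgeR adjusted p = 4.13e-05 and 0.00127, with C5ar2 at 1.80 under quantile normalization), whereas Hc, the mouse gene of C5, had no count in any mouse. The integrin chains of the receptors of cleaved C3 had log2 fold changes of 2.48 for Itgam, 3.35 for Itgb2 and 4.53 for Itgax (edgeR adjusted p = 5.53e-05, 0.000513 and 0.00158). That of Itgax was 3.33 without Letmd1 KO replicate 2, 3.62 under quantile normalization and 8.196 with the muscle level as a covariate. Cd93, found on endothelial cells as well, had the smallest fold change of those called (0.55, edgeR adjusted p = 0.0197). Its call was lost with the muscle covariate (edgeR adjusted p = 0.161), without wild-type replicate 1 (0.0635) and 2 (0.0656), and without Letmd1 KO replicate 1 (0.0516) and 3 (0.069). Endothelial markers summed to 443 to 550.2 CPM in wild-type and 281 to 372 CPM in Letmd1 KO BAT.

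**Figure D4:**
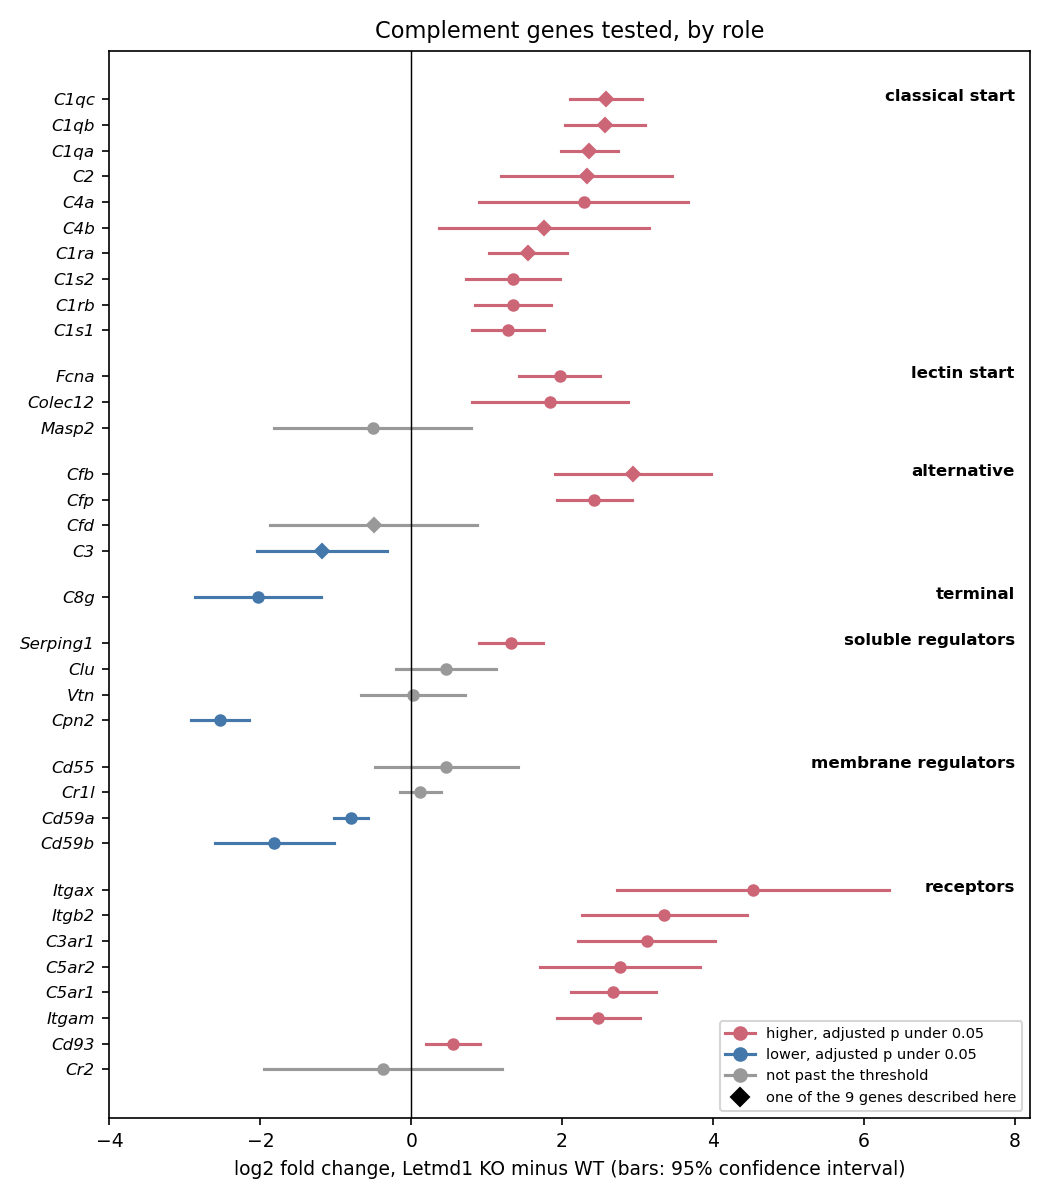
Log2 fold change (Letmd1 KO minus wild type) with its 95% confidence interval for the complement genes tested and reported here, grouped by role, in red where higher and blue where lower at an adjusted p under 0.05, in grey otherwise, and with diamonds for the 9 genes described in full. All classical genes lie to the right of 0, up to 2.58 for C1qc, whereas C3 (-1.18), C8g (-2.03), Cpn2 (-2.53), Cd59a (-0.80) and Cd59b (-1.81) lie to the left.

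The profiles of the 9 genes over the 6 mice, as log2 CPM centred on their mean, fell closest together for C1qb and C1qc, with a root mean square difference of 0.097. C3 and Cfd were nearest to each other within the group (0.41), and both were at least 1.22 from the genes that rose. Among 11923 genes with a mean of at least 20 counts, the nearest to C1qa was Lst1 (0.12), the nearest to C1qc after C1qb was Itgam (0.12) and the nearest to C1ra was Maf (0.069), followed by the collagen gene Col6a3 (0.077). The nearest to Cfb were Cd84 (0.21) and C3ar1 (0.22), and to C2 it was Chrdl1 (0.25). C4b lay nearest to the adipokine gene Retn (0.24) and the acute phase gene Serpina3n (0.27). For both C3 and Cfd the nearest gene of all was Acp5 (0.12 and 0.31). These distances describe 6 mice of 2 genotypes.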

How the data were processed

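RNA of BAT from 3 wild-type and 3 Letmd1 KO mice was sequenced from QuantSeq 3′ libraries. The authors aligned the single-end reads with Bowtie2 and used Bedtools to count both unique and multiple alignments for each gene, on mm10 according to the submitters' processing notes. They deposited whole-number counts per mouse, and quantile normalization, named in the methods, is not part of these values. Annotation and use of strand are not given in the sources used here.

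Samples were grouped by the genotype in their titles. Counts were tested in R 4.3.3 with edgeR 4.0.16 (quasi-likelihood test, TMM scaling, edgeR's default filter, set at 10 counts and 15 in total) and Benjamini-Hochberg adjustment over all 12995 genes tested and a threshold of 0.05. Standard errors are the log2 fold change divided by the square root of the F statistic. CPM are counts over the TMM-scaled library size, and log2 CPM used a prior count of 2. Ratios within a mouse went into two-sided exact permutation tests. No replicates were within counting noise of each other (lowest chi-square over its degrees of freedom, 12.1). The p-values measure the spread between these mice only. Floors of 3 counts (0.176 to 0.397 CPM) cover counting error only. The edgeR fit and the limma and DESeq2 alternatives were run on simulated counts, and the other steps were not.

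The 9 genes and all lists were chosen with earlier results of these data known. Genes named are these 9, Letmd1, pathway genes past the threshold, Adipoq and Adgre1, up to 3 genes of a marker list and the nearest profiles. Zbtb12 and Gm20547, which overlap C2, are named as well. Cr1l and the genes without counts (Mbl2, Masp1, Hc, C8a and C8b) fall outside this rule and, like Cpn1, were chosen after their values were seen. 1 pathway gene is not reported here. Alternatives used limma 3.58.1, DESeq2 1.42.0, other scalings, filters and covariates, a replicate block and each mouse left out. Summing close copies was added after seeing the data. Positions came from GENCODE vM21 (GRCm38) and promoters from RefSeq (GRCm38.p6), searched in Python 3.11.15. The last 300 bases of transcripts were aligned with Biopython 1.88.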

Additional observations from a re-analysis of the deposited data

How the results depend on the processing

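The rises of C1qa, C1qb, C1qc, C1ra, C2 and Cfb kept their direction and passed the threshold under every alternative run. Scaling by library size alone moved the median over all genes tested (log2) from 0.033 to 0.45 and gave 5899 genes higher and 1368 lower (3082 and 2896 with TMM). With the muscle level as a covariate, which largely followed genotype, these were 1779 and 1767. C3 was not called with library size alone (-0.77), quantile normalization (-0.995), DESeq2 (-1.20) or the muscle covariate (-0.65), so that the number of the 9 genes, and of the alternative pathway genes, that were lower was 0 there in place of 1. C4b was not called under quantile normalization (1.32) or DESeq2 (1.76). For Cfd the sign turned with the muscle covariate (0.19), and for the ratio of C1qb to Adgre1 under quantile normalization (0.10). A mean of at least 50 counts, which leaves fewer genes to test, gave 1 lectin pathway gene higher in place of 2 and 0 terminal genes lower in place of 1, and the muscle covariate also gave 1 lectin pathway gene. Library size alone gave 1 membrane regulator higher, and library size alone or no filter on low counts gave 2 soluble regulators higher in place of 1. Other causes were not tested.

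With each mouse left out in turn, the number of the 9 genes that were lower was 0 to 2, as was that of alternative pathway genes, the number of soluble regulators that were higher was 1 to 2, and the median log2 fold change of the 9 genes was 1.53 to 2.49. The log2 fold change ranged from -1.87 to -0.90 for C3, from 0.54 to 2.17 for C4b and from -1.88 to -0.084 for Cfd, and the ratio of C1qb to Adgre1 from -0.63 to 0.050. Same-numbered mice of the genotypes did not deviate together (correlations 0.069, -0.11 and -0.087). Wild-type replicate 2 and Letmd1 KO replicate 3 had a correlation of 0.19. The numbers were not read as pairs, but so few mice cannot exclude a pairing. With a replicate block, C4b was at 1.33 (edgeR adjusted p = 0.108). That fit changed no other call among the 9 genes, and Cfd was at -1.10 (edgeR adjusted p = 0.179). Cpn1, with 0 to 22 counts per mouse, was the soluble regulator gained without the filter and with any wild-type mouse, or replicate 2 of the Letmd1 KO mice, left out, and Clu the one gained with library size alone. The number of receptors that were higher was 6 to 7, and Cd93 was the call lost, except that a mean of at least 50 counts left C5ar2 untested.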
